A study of Caenorhabditis elegans with 12 samples.

Results

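The endoplasmic reticulum (ER) stress sensors and chaperones examined here are 10 genes of Caenorhabditis elegans: ire-1, pek-1, atf-6, xbp-1, hsp-3, hsp-4, enpl-1, crt-1, pdi-1 and pdi-2. Every probe set whose only gene symbol in the array's annotation was one of these was taken, whatever its level. That gave 17 of 22625 probe sets: 7 genes had 2 and hsp-3, hsp-4 and crt-1 had 1 each. All 17 passed the filter on low values, under which 12057 probe sets were tested. The study measured whole-worm RNA of the wild-type strain N2 on Affymetrix arrays, with 3 arrays in each of 4 groups. Synchronized worms ate HT115 bacteria of an RNA interference (RNAi) feeding strain from adult day 1 for 3 days. They were taken as day 3 adults, and were washed every other day to remove eggs and larvae. Controls carried an empty vector, and the other groups were labelled hsp-6, hsp-6;hsf-1 and hsp-6;dve-1, so hsp-6 RNAi is common to all 3 knock-down groups. The last 2 are the double RNAi groups, and hsp-6;hsf-1 is called hsf-1 double RNAi from here. hsp-6 makes the Hsp70 of mitochondria, dve-1 a homeodomain factor of mitochondrial protein stress and hsf-1 the heat shock regulator. The design compares hsp-6 RNAi with and without added hsf-1 or dve-1 RNAi. No group had hsf-1 or dve-1 RNAi alone, so a changed response to hsp-6 RNAi and an effect of the added RNAi itself cannot be told apart.

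The ER folds secreted and membrane proteins, and its unfolded protein response is run by 3 membrane sensors. IRE-1 cuts xbp-1 mRNA so that an active transcription factor is made, PEK-1 (the worm PERK) phosphorylates the translation factor eIF2α, and ATF-6 is, in mammals, cleaved to release a transcription factor. Their textbook targets are chaperones of the ER lumen, and hsp-4, one of the BiP genes, is the usual transcriptional reporter of the response in worms. The probe sets measured total transcript, so neither xbp-1 splicing nor eIF2α phosphorylation was read. Values are log2 units from GCRMA, a method that corrects background, normalizes arrays and summarises the probes of a probe set. 9 of the 17 probe sets carry the suffix s_at and 1, of pek-1, carries x_at, marks the manufacturer uses for probes that can match several transcripts, and levels of different probe sets are not set against each other.

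The RNAi targets were checked first, on 2 probe sets each. On 174618_at hsp-6 averaged 11.12 on empty vector, 6.84 under hsp-6 RNAi, 9.63 in hsf-1 double RNAi and 9.82 in hsp-6;dve-1, so its transcript was 2.79 (adjusted p = 0.0024) and 2.98 (adjusted p = 0.00086) log2 units above hsp-6 RNAi alone in the double RNAi groups. On 192644_at it was 1.99 (adjusted p = 0.023) and 2.25 (adjusted p = 0.014) units above. The labels used here give no dose of hsp-6 RNAi for single and double feeding, so in every comparison of a double RNAi group and hsp-6 RNAi a weaker hsp-6 knock-down and the added RNAi cannot be told apart. hsf-1 did not pass the test in its own knock-down relative to hsp-6 RNAi, at -0.90 (adjusted p = 0.12) on 191962_s_at and -0.78 (adjusted p = 0.26) on 171962_x_at. The hsf-1 double RNAi arrays lay below all hsp-6 RNAi arrays on both. Against empty vector hsf-1 double RNAi read -1.64 and -1.6 on these (adjusted p = 0.085 and 0.087), again without overlap. No tested probe set passed the test in that comparison. hsp-6 RNAi alone read -0.74 and -0.82 from empty vector on these (adjusted p = 0.21 and 0.28), and hsp-6;dve-1 read -0.89 and -1.16 (adjusted p = 0.13 and 0.12). The dve-1 transcript went against its label on 175379_at, at 8.06 in hsp-6;dve-1 arrays against 5.53 for hsp-6 RNAi (higher by 2.53, adjusted p = 0.03), and read 1.23 above it in hsf-1 double RNAi (adjusted p = 0.21). The other dve-1 probe set, 185625_at, differed by 0.24 between hsp-6;dve-1 and hsp-6 RNAi (adjusted p = 0.63). That group is therefore only called by its label, and hsp-6;dve-1 below means the arrays so labelled. Medians of the arrays over tested probe sets were between 7.94 and 8.11, and 2 arrays stood farthest out on the first principal component, replicate 3 of hsf-1 double RNAi and replicate 2 of hsp-6;dve-1. hsp-6 RNAi replicates 1 and 3 were more alike than any other pair, and with them averaged into 1 array 0 of the 17 probe sets passed the test in any comparison. Replicates are not said to be separate cultures, so the p-values measure only the spread between these arrays. In whole worms, fewer cells of a type and less RNA per cell cannot be told apart.

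Under hsp-6 RNAi most ER genes read near their empty vector levels, and the widest differences were those of pek-1, which read higher, and atf-6, hsp-3 and pdi-2, which read lower. None of the 17 probe sets passed limma's test at an adjusted p below 0.05, against 2.74% of all tested probe sets. At an unadjusted p below 0.05 the count was 6 of 17, 2 higher and 4 lower, where 21.6% of all tested probe sets did the same. The arrays of the groups did not overlap for 5 of 17, against 39.7%. The differences ran from -0.64 to 1.06 with a median of -0.10, and over all tested probe sets the median was -0.02. In size they had a median of 0.22 against 0.34. For 12 of the 17 the 95% interval lay between -1 and 1, and 46.2% of all tested probe sets had such an interval. Taken singly and without adjustment, those 12 intervals left out a 2-fold difference either way, on the spread between these arrays.

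Among the sensors, pek-1 showed the largest difference. Its probe set 171753_x_at read 7.83, 7.06 and 6.86 on empty vector and 8.44, 8.38 and 8.11 under hsp-6 RNAi. It read 7.57, 7.32 and 8.04 in hsf-1 double RNAi and 7.89, 8.28 and 7.65 in arrays labelled hsp-6;dve-1. All 3 hsp-6 RNAi arrays stood above all 3 empty vector arrays, and the empty vector group had the wider spread. Between these groups the difference was 1.06 (SE 0.29), or 2.08-fold with a 95% interval from 1.33 to 3.26, and the adjusted p was 0.081. The other pek-1 probe set, 193940_s_at, read 8.4, 7.96 and 7.43 on empty vector and 8.95, 8.86 and 8.73 under hsp-6 RNAi, so it was higher by 0.91 (SE 0.28, adjusted p = 0.11). The groups did not overlap there either. Without replicate 3 of hsf-1 double RNAi, an array of neither group that enters the fit through the shared variance, the adjusted p values became 0.0496 and 0.0493, with 6.13% of all probe sets called. Without both arrays farthest out they became 0.0287 and 0.0347, with 13.9% called.

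In the double RNAi groups pek-1 lay between those levels, and its probe sets did not order the groups alike. For 171753_x_at the group means ran in the order empty vector 7.25 ± 0.52, hsf-1 double RNAi 7.64 ± 0.36, hsp-6;dve-1 7.94 ± 0.32 and hsp-6 RNAi 8.31 ± 0.18 (SD, n = 3), and each neighbouring pair overlapped. For 193940_s_at the order was empty vector 7.93 ± 0.49, hsp-6;dve-1 8.02 ± 0.10, hsf-1 double RNAi 8.38 ± 0.47 and hsp-6 RNAi 8.84 ± 0.11. On 193940_s_at the arrays labelled hsp-6;dve-1 read 8.03, 8.11 and 7.91, all below the hsp-6 RNAi arrays, while hsf-1 double RNAi read 8.26, 7.97 and 8.9. The difference of hsp-6;dve-1 from hsp-6 RNAi was -0.83 (SE 0.28, adjusted p = 0.11) on 193940_s_at and -0.37 (SE 0.29, adjusted p = 0.47) on 171753_x_at. For hsf-1 double RNAi against hsp-6 RNAi it was -0.47 (adjusted p = 0.33) and -0.67 (adjusted p = 0.19).

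ire-1, the sensor and nuclease that cuts xbp-1, overlapped between all 4 groups. Probe set 173766_at read 9.76, 9.54 and 9.13 on empty vector, 9.25, 9.48 and 9.16 under hsp-6 RNAi, 9.5, 9.35 and 8.49 in hsf-1 double RNAi, and 9.5, 8.72 and 9.21 in hsp-6;dve-1. No group stood apart from another. The hsp-6 RNAi difference was -0.18 on this probe set (95% interval -0.83 to 0.47) and 0.19 on 191178_s_at (-0.49 to 0.88). Low readings came from the arrays farthest out: 8.49 in replicate 3 of hsf-1 double RNAi on 173766_at, and 8.72 on it and 7.71 on 191178_s_at in replicate 2 of hsp-6;dve-1, with an empty vector array next at 7.78 on the latter. Without both arrays the ire-1 differences of both double RNAi groups from hsp-6 RNAi, between -0.19 and -0.14 with them, ran from 0.03 to 0.13.

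atf-6 was lower under hsp-6 RNAi on both probe sets, without passing the test. 174669_s_at read 8.21, 7.86 and 7.98 on empty vector and 7.4, 7.3 and 7.49 under hsp-6 RNAi. It read 7.67, 7.38 and 7.68 in hsf-1 double RNAi and 7.83, 7.45 and 7.41 in hsp-6;dve-1. All 9 knock-down arrays stood below the lowest empty vector array, and the 3 knock-down groups overlapped one another. The difference of hsp-6 RNAi from empty vector was -0.62 (SE 0.20, 95% interval -1.05 to -0.18, adjusted p = 0.11), and without both arrays farthest out the adjusted p was 0.047. 188462_at, a dim probe set, read 6.13, 5.85 and 5.55 on empty vector and 5.62, 5.14 and 5.56 under hsp-6 RNAi, which overlap, for a difference of -0.40 (adjusted p = 0.48).

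**Figure D1:**
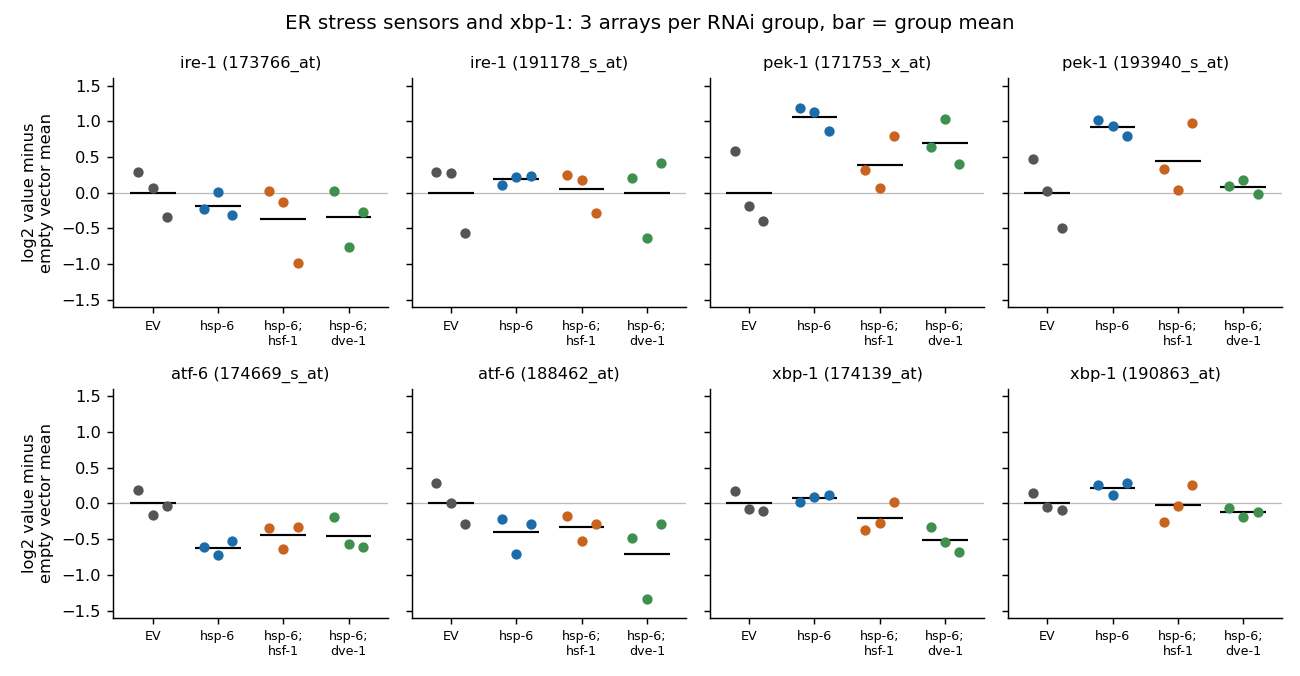
Each panel shows 1 probe set of ire-1, pek-1, atf-6 or xbp-1, with 1 point per array (3 per RNAi group), the group mean as a bar, and the log2 value minus the empty vector mean on the y axis. The pek-1 points of hsp-6 RNAi stand above the empty vector points on both probe sets, by 1.06 and 0.91 on average, and the ire-1 groups overlap.

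xbp-1, the transcription factor gene spliced by IRE-1, was near its control level under hsp-6 RNAi. In arrays labelled hsp-6;dve-1 it read below hsp-6 RNAi on both probe sets, without passing the test. Probe set 174139_at read 8.81, 8.56 and 8.53 on empty vector, 8.65, 8.72 and 8.75 under hsp-6 RNAi, and 8.31, 8.09 and 7.96 in hsp-6;dve-1. The hsp-6;dve-1 arrays lay below all arrays of both other groups. hsf-1 double RNAi, at 8.26, 8.36 and 8.66, spanned the gap and overlapped the others. Against hsp-6 RNAi the hsp-6;dve-1 difference was -0.59 (SE 0.18, 95% interval -0.98 to -0.19, adjusted p = 0.079), and without replicate 3 of hsf-1 double RNAi the adjusted p was 0.0492, with 8.68% of all probe sets called. On 190863_at the values were 9.06, 8.93 and 9.09 under hsp-6 RNAi and 8.74, 8.61 and 8.69 in hsp-6;dve-1, again without overlap, and the difference was -0.35 (95% interval -0.73 to 0.04, adjusted p = 0.25). hsp-6 RNAi differed from empty vector by 0.07 (95% interval -0.32 to 0.47) and 0.22 (-0.16 to 0.60) on 174139_at and 190863_at. For hsp-6;dve-1 against empty vector the difference was -0.51 (adjusted p = 0.12) on 174139_at. On 190863_at it was -0.13 (95% interval -0.51 to 0.26, adjusted p = 0.63), with overlapping arrays.

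hsp-4, the inducible BiP gene, had a lower mean under hsp-6 RNAi than on empty vector, with overlapping arrays. Its probe set read 11.3, 11.05 and 11.34 on empty vector and 11.19, 10.44 and 11.13 under hsp-6 RNAi. It read 10.69, 10.78 and 10.5 in hsf-1 double RNAi and 10.66, 10.36 and 10.68 in hsp-6;dve-1. hsp-6 RNAi replicate 2 was low and its other arrays lay within the empty vector range, while all 6 double RNAi arrays lay below every empty vector array. The difference of hsp-6 RNAi from empty vector was -0.31 (SE 0.20), a ratio of 0.808 with a 95% interval from 0.594 to 1.10 (adjusted p = 0.41). Without hsp-6 RNAi replicate 2 it was -0.07 (adjusted p = 0.925), and leaving out 1 array at a time it ran from -0.44 to -0.07. The group means ran in the order empty vector 11.23 ± 0.16, hsp-6 RNAi 10.92 ± 0.42, hsf-1 double RNAi 10.65 ± 0.14 and hsp-6;dve-1 10.57 ± 0.18 (SD, n = 3), and each neighbouring pair overlapped. Against empty vector the double RNAi groups differed by -0.58 (adjusted p = 0.12) for hsf-1 and by -0.66 (SE 0.20, adjusted p = 0.087) for hsp-6;dve-1.

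hsp-3, the other BiP gene, read 11.16, 11.31 and 11.12 on empty vector and 10.94, 10.5 and 10.78 under hsp-6 RNAi. It read 11.12, 10.67 and 11.37 in hsf-1 double RNAi and 10.89, 10.79 and 10.65 in hsp-6;dve-1. The hsp-6 RNAi and hsp-6;dve-1 arrays all lay below the empty vector arrays, and the hsf-1 double RNAi arrays overlapped every group. hsp-6 RNAi differed from empty vector by -0.46 (SE 0.19, 95% interval -0.87 to -0.05, adjusted p = 0.19), a ratio of 0.727. hsf-1 double RNAi stood 0.31 above hsp-6 RNAi (95% interval -0.10 to 0.72) and hsp-6;dve-1 stood 0.04 above it (-0.37 to 0.44). The order of means was hsp-6 RNAi 10.74 ± 0.22, hsp-6;dve-1 10.78 ± 0.12, hsf-1 double RNAi 11.05 ± 0.36 and empty vector 11.20 ± 0.10.

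enpl-1, the ER Hsp90 (GRP94), and crt-1, the calcium-binding lectin chaperone calreticulin, read near control under hsp-6 RNAi. crt-1 read 13.59, 13.38 and 13.21 on empty vector and 13.6, 13.27 and 13.7 under hsp-6 RNAi, and the difference was 0.13 (95% interval -0.23 to 0.50). Its mean lay between 13.39 and 13.58 in the 4 groups, all of which overlapped. enpl-1 probe set 191965_at read 12.28, 11.87 and 11.58 on empty vector, 12.12, 12 and 12.16 under hsp-6 RNAi, 11.91, 11.51 and 11.95 in hsf-1 double RNAi, and 11.71, 11.74 and 11.66 in hsp-6;dve-1. Both double RNAi groups lay below the hsp-6 RNAi arrays, and all 3 knock-down groups lay within the empty vector range or overlapped it. Against hsp-6 RNAi the differences were -0.31 (95% interval -0.69 to 0.08) for hsf-1 double RNAi and -0.39 (-0.78 to -0.01, adjusted p = 0.20) for hsp-6;dve-1. The other enpl-1 probe set, 173321_at, overlapped in these pairs, at -0.25 and -0.17, and hsp-6 RNAi differed from empty vector by -0.01 (95% interval -0.41 to 0.39) there and by 0.19 (-0.20 to 0.57) on 191965_at.

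The protein disulfide isomerases, which form and rearrange disulfide bonds, read below their empty vector means on all 4 probe sets under hsp-6 RNAi. For pdi-2, 172947_at read 7.48, 7.49 and 7.93 on empty vector and 7.14, 6.78 and 7.06 under hsp-6 RNAi, without overlap. The difference was -0.64 (SE 0.21, 95% interval -1.11 to -0.17, adjusted p = 0.12). On 193124_s_at pdi-2 read 11.01, 11.35 and 11.34 on empty vector and 11.02, 10.56 and 10.95 under hsp-6 RNAi, a ratio of 0.763 (95% interval 0.584 to 0.997, adjusted p = 0.23), and here the groups overlapped. In hsf-1 double RNAi this probe set read 11.12, 10.99 and 11.51, and in hsp-6;dve-1 11.05, 10.98 and 11.03, so its spread was narrow in the last group. pdi-1 differed less: 174408_s_at read 12.68, 12.45 and 12.71 on empty vector and 12.39, 12.49 and 12.44 under hsp-6 RNAi, a difference of -0.17 (95% interval -0.53 to 0.19), and 192946_s_at differed by -0.10 (-0.46 to 0.27). In hsf-1 double RNAi both pdi-1 probe sets lay below all hsp-6 RNAi arrays, by 0.23 and 0.24 on average (adjusted p = 0.40 and 0.39), and 192946_s_at did so in hsp-6;dve-1, at 11.55, 11.12 and 11.72 against 11.77, 11.81 and 11.94 (a difference of -0.37, adjusted p = 0.19).

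**Figure D2:**
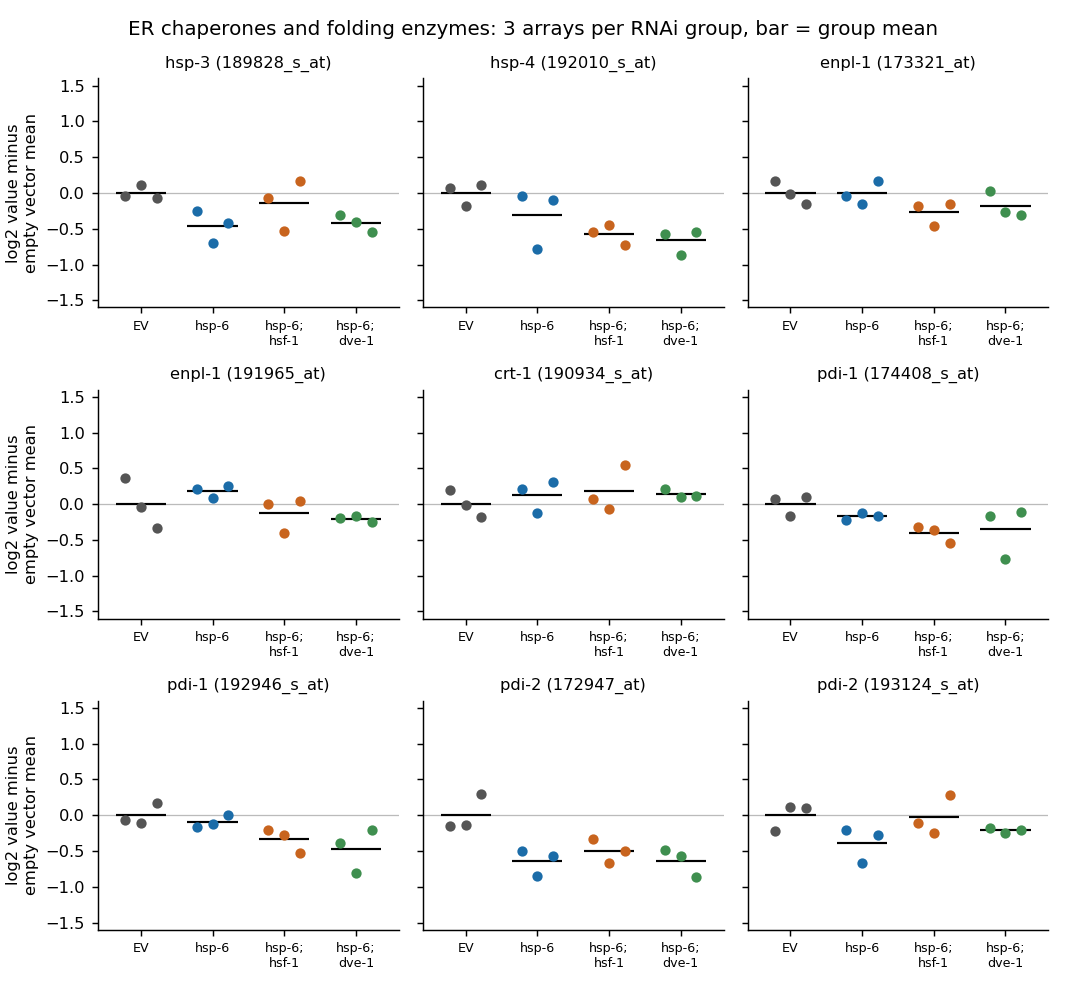
Each panel shows 1 probe set of hsp-3, hsp-4, enpl-1, crt-1, pdi-1 or pdi-2, with 1 point per array (3 per RNAi group), the group mean as a bar, and the log2 value minus the empty vector mean on the y axis. The hsp-4 points of both double RNAi groups lie below the empty vector points, by 0.58 and 0.66 on average, and the crt-1 groups overlap.

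Most members overlapped between hsp-6 RNAi and each double RNAi group, and those that did not read lower in the double RNAi arrays. These comparisons share the hsp-6 RNAi arrays, so an array of that group that reads high or low moves both. For hsf-1 double RNAi, 0 of 17 probe sets were called (5.67% of all tested), 1 was lower at an unadjusted p below 0.05 (13.8% of all in that direction) and 4 lay below hsp-6 RNAi without overlap (21.5% of all did so in that direction). The median difference was -0.23 against -0.10 over all tested, and 15 of 17 intervals lay between -1 and 1 (47.4%). For hsp-6;dve-1, 0 of 17 were called (5.74%), 4 were lower at an unadjusted p below 0.05 (13.4%), and 5 lay below without overlap (19.9%): both of xbp-1 and 1 each of pek-1, pdi-1 and enpl-1. The median difference was -0.19 against -0.06, and 15 of 17 intervals lay between -1 and 1 (47.4%). Shares in 1 direction were chosen after the member counts were seen. In either direction 24.7% of all tested had an unadjusted p below 0.05 and 34.4% did not overlap for hsf-1 double RNAi. For hsp-6;dve-1 these shares were 24.2% and 33.8%.

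**Figure D3:**
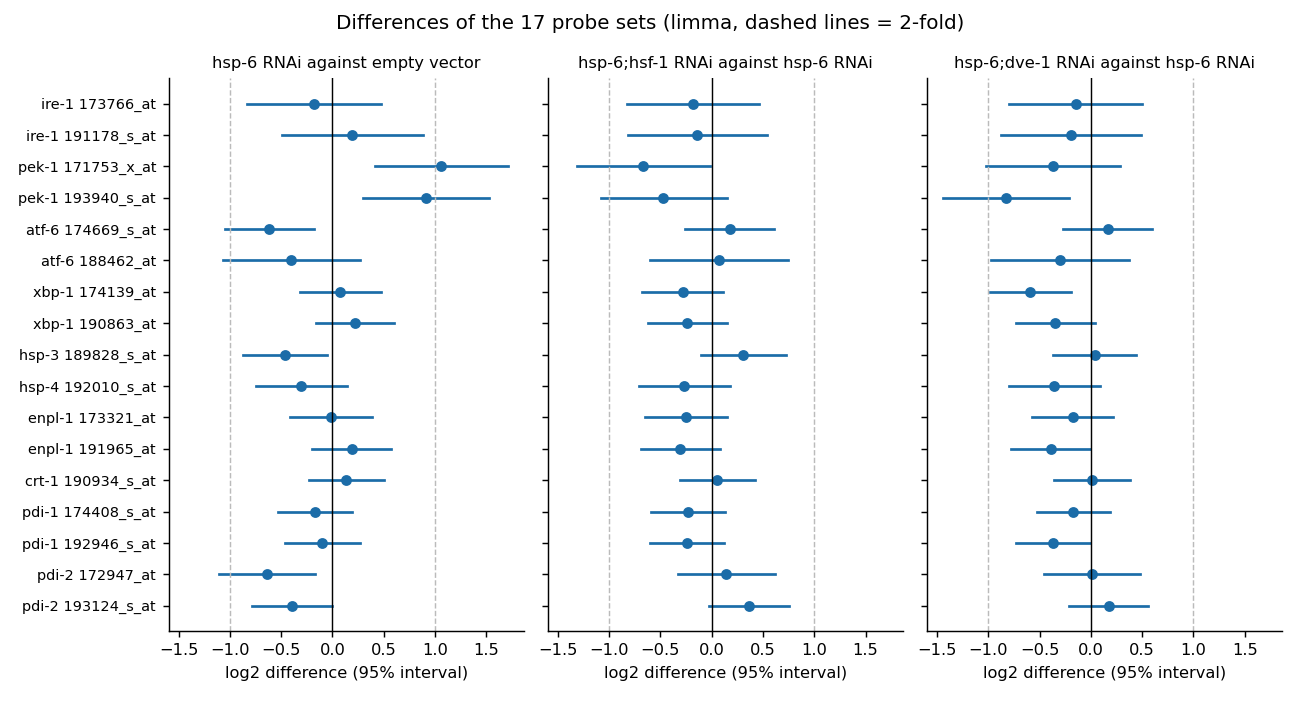
Each row is 1 of the 17 probe sets and each panel a comparison of RNAi groups, with the limma log2 difference as a point and its 95% interval as a bar, on n = 3 arrays per group. Dashed lines mark a 2-fold difference, and 12, 15 and 15 of the 17 intervals lie inside them for hsp-6 RNAi against empty vector, and hsf-1 double RNAi and hsp-6;dve-1 relative to hsp-6 RNAi.

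Against empty vector, 13 of 17 probe sets had a lower mean in hsf-1 double RNAi and 14 of 17 in hsp-6;dve-1. The median differences were -0.21 and -0.33, and over all tested probe sets they were -0.13 and -0.10. 0 of 17 were called for hsf-1 double RNAi, where 0 of all 12057 probe sets (0%) were called and 4 of 17 were lower at an unadjusted p below 0.05 (15.4%), and 5 lay below without overlap (22.3%). The 4 were hsp-4, pdi-2 172947_at, pdi-1 174408_s_at and atf-6 174669_s_at. For hsp-6;dve-1 0 of 17 were called (2.27%) and 8 had an unadjusted p below 0.05 (26.8%), with pek-1 171753_x_at higher by 0.69 (adjusted p = 0.17) and 7 lower (13.4% of all were lower). The 7 were hsp-3, hsp-4, xbp-1 174139_at, both of atf-6, pdi-1 192946_s_at and pdi-2 172947_at, with differences from -0.70 to -0.42 and adjusted p from 0.087 to 0.18. 6 lay below empty vector without overlap (18.2%). In either direction 29.8% of all had an unadjusted p below 0.05 for hsf-1 double RNAi. Groups did not overlap in either direction for 36.9% of all in hsf-1 double RNAi and 32.4% in hsp-6;dve-1. Of 17 intervals, 12 and 13 lay between -1 and 1 for hsf-1 double RNAi and hsp-6;dve-1 (41.3% and 43.2% of all). Both comparisons share their empty vector arrays with that of hsp-6 RNAi.

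Few probe sets of any kind differed between the double RNAi groups, and the counts for these genes were near the shares of all tested. 0 of 17 were called between the double RNAi groups (0.232% of all tested), 0 had an unadjusted p below 0.05 (2.30%) and 0 were free of overlap (3.67%). The differences of hsp-6;dve-1 from hsf-1 double RNAi ran from -0.37 to 0.29, and 16 of 17 intervals lay between -1 and 1 (65.1%). For hsp-4 the difference was -0.09 (95% interval -0.53 to 0.36) and for xbp-1 174139_at it was -0.31 (-0.70 to 0.09).

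The wider ER protein-handling machinery gave the same count. Outside the 10 genes, 5 lists held 60 genes with 83 tested probe sets: other folding enzymes and co-chaperones, ER-associated degradation, translocation into the ER, partners and targets of the sensors, and the abu family of putative stress-induced membrane proteins. None of the 83 was called in either direction in any of the 6 comparisons, where the shares of all tested probe sets called were those given above, from 0% to 5.74%. The median difference of the 83 was -0.08 for hsp-6 RNAi against empty vector (-0.02 over all tested), -0.15 for hsf-1 double RNAi (-0.10) and -0.14 for hsp-6;dve-1 relative to hsp-6 RNAi (-0.06). At an unadjusted p below 0.05, 2 were higher and 7 lower in the first comparison (21.6% of all tested, either direction), 4 and 6 in the second (24.7%), and 1 and 9 in the third (24.2%). Against empty vector 3 were higher and 16 lower in hsf-1 double RNAi, where 14.4% of all tested were higher and 15.4% lower (29.8% either way). In hsp-6;dve-1 0 were higher and 20 lower, where 13.4% of all tested were higher and 13.4% lower (26.8% either way). The median differences of the 83 from empty vector were -0.19 and -0.27 in these groups (-0.13 and -0.10 over all tested). Of 11 annotated abu genes, 3 passed the filter on low values.

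The largest differences on these lists, none called, were higher in the double RNAi groups relative to hsp-6 RNAi. They were those of abu-13 (2.57 and 1.87) and sul-3 (2.55 and 1.74) in hsf-1 double RNAi and hsp-6;dve-1. The 3 tested abu probe sets averaged 3.43 to 3.65 per array under hsp-6 RNAi, below the log2 4 minimum. They reached 5.42 in hsf-1 double RNAi and 5.24 in hsp-6;dve-1. Probe sets at such low levels pass the filter only through arrays where they read higher, so the abu-13 differences are not independent of the filter. The lowest adjusted p for hsf-1 double RNAi relative to hsp-6 RNAi was 0.095. Genes with small adjusted p values in other comparisons, chosen after their values were seen, had several roles. Under hsp-6 RNAi against empty vector, ckb-2, a choline kinase gene, differed by -0.95 (SE 0.25, adjusted p = 0.075) and spcs-1, a signal peptidase subunit, by 0.70 (SE 0.19, adjusted p = 0.081). trap-3, of the translocon-associated protein complex, differed by -0.60 and -0.70 on its probe sets (adjusted p = 0.089 and 0.11). In hsp-6;dve-1 relative to hsp-6 RNAi, marc-6, an ER membrane ubiquitin ligase, differed by -1.55 on 182243_at (SE 0.42, adjusted p = 0.055) and by -0.34 on 174663_at (adjusted p = 0.24). sbp-1, the worm SREBP, differed by -0.97 (SE 0.27, adjusted p = 0.056). In hsp-6;dve-1 relative to empty vector, trap-3 differed by -0.92 and -0.63 (adjusted p = 0.056 and 0.071) and sca-1, the calcium pump of the ER, by -0.90 on 188973_at (adjusted p = 0.065). The tested sca-1 probe sets did not agree in sign. They differed by -0.563, 0.302, 0.069 and -0.445 for hsp-6 RNAi against empty vector. For hsp-6;dve-1 relative to hsp-6 RNAi they differed by -0.52, 0.283, -0.029 and -0.452. The 24 folding probe sets ran from -0.48 to 0.44 under hsp-6 RNAi against empty vector, with a median of -0.01, and 1 was higher and 3 lower at an unadjusted p below 0.05. uggt-1, the glucosyltransferase that senses misfolded glycoproteins, had the value of -0.48 (adjusted p = 0.22), cnx-1, calnexin, differed by 0.23 (adjusted p = 0.53) and ero-1, the oxidase that recharges the disulfide isomerases, by 0.05 and -0.01 (adjusted p = 0.94 and 1).

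**Figure D4:**
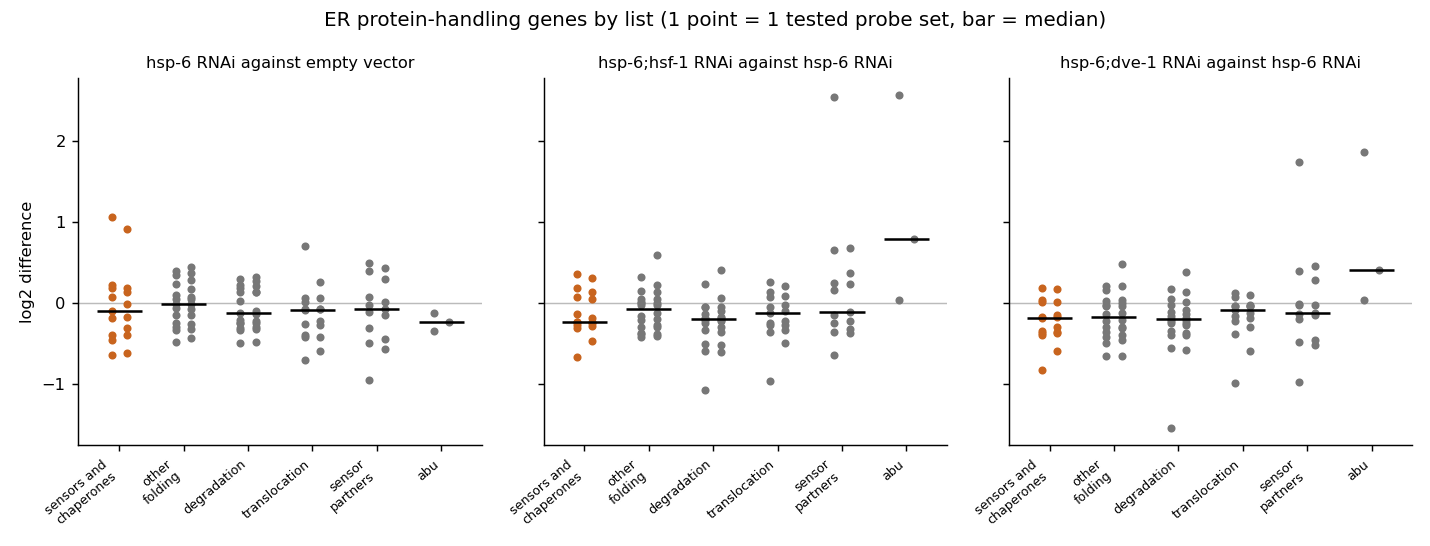
Each point is the limma log2 difference of 1 tested probe set, grouped by list along the x axis with the list's median as a bar, for 3 comparisons of RNAi groups. None of the 17 sensor and chaperone probe sets or of the 83 on the other lists was called, and the median of the 83 was -0.08, -0.15 and -0.14 in the 3 panels.

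Markers of other tissues moved between the groups compared. Relative to hsp-6 RNAi, 2.91% of all tested probe sets were called higher in hsf-1 double RNAi and 2.78% in hsp-6;dve-1. Of 27 tested sperm probe sets, 23 and 13 were called higher in these comparisons, with median differences of 5.50 and 5.03. Their mean level per array ran from 4.85 to 8.53 on empty vector, 4.08 to 7.16 under hsp-6 RNAi, 10.09 to 11.74 in hsf-1 double RNAi and 8.83 to 12 in hsp-6;dve-1. Of 32 cuticle probe sets, 19 and 18 were called higher in the same comparisons, with mean levels of 8.94 to 10.21, 8.88 to 8.96, 10.35 to 11.83 and 10.15 to 11.75 in the 4 groups. Of 29 muscle probe sets, 10 and 7 were called higher. With hsp-6 RNAi replicates 1 and 3 averaged into 1 array, 10 and 55 of all 12057 probe sets were called higher in these comparisons. In the main fit these totals were 351 and 335. At most 10 of the higher marker calls for hsf-1 double RNAi were therefore kept with that averaging, and the marker lists were not recounted. Of 33 oocyte and embryo probe sets, 3 and 3 were called lower in hsf-1 double RNAi and hsp-6;dve-1 relative to hsp-6 RNAi (2.76% and 2.96% of all tested). Probe sets of spe-9 (sperm), lev-11 and unc-22 (muscle) and med-1 (embryo) stood at the lowest value of the arrays in all 4 groups and were not among those tested. Of 24 tested intestine probe sets, 3 were called higher in hsf-1 double RNAi, and 1 higher and 3 lower in hsp-6;dve-1, and their mean level was 10.61 to 11.23, 11.01 to 11.35, 11 to 11.8 and 10.76 to 11.7. Under hsp-6 RNAi against empty vector, 0 sperm, 0 muscle and 0 oocyte probe sets were called, with 1 higher and 2 lower for cuticle and 1 higher for intestine (1.97% of all higher, 0.771% lower). Against empty vector, 0 sperm and 0 cuticle probe sets were called in either double RNAi group (0% and 2.27% of all). At an unadjusted p below 0.05, 27 and 26 sperm probe sets were higher (14.4% and 13.4% of all). In hsp-6;dve-1, 4 muscle and 2 intestine probe sets were called higher and 1 oocyte probe set lower. The part of these tissues in the sensor and chaperone values of the double RNAi groups was not tested.

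**Figure D5:**
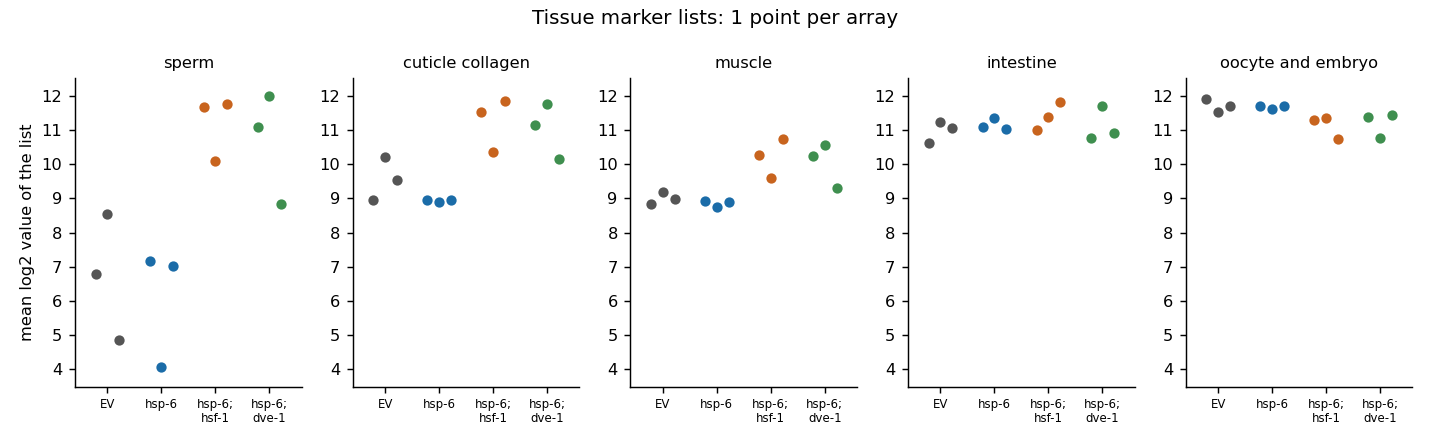
Each panel is a list of tissue markers, each point the mean log2 value of the list's tested probe sets on 1 array, and the x axis the 4 RNAi groups of 3 arrays. Sperm markers ran from 4.08 to 8.53 on empty vector or hsp-6 RNAi and from 8.83 to 12 in the double RNAi groups.

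The profiles of the BiP genes over the 12 arrays differed. Their Pearson correlation was 0.35, a description across arrays that share groups and tissue make-up. Among named probe sets, the 5 most like hsp-3 were wdfy-3 (0.92), nog-1 (0.90), dpy-2 (0.89), eef-1A.2 (0.88) and sea-2 (0.87), and pdi-2 193124_s_at followed at rank 7 with 0.86. The 5 most like hsp-4 were eif-3.E, cyb-1 and elt-6 (0.95 each), tba-2 (0.94) and zfp-3 (0.93). Of the other ER genes, pdi-1 192946_s_at came nearest to hsp-4, with 0.77 at rank 976. pek-1 gave -0.38 with hsp-3 and -0.39 with hsp-4 on 171753_x_at, and -0.06 and -0.17 on 193940_s_at.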

How the data were processed

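The deposited values are log2 values per probe set, made by the authors with GCOS 1.4 and GCRMA per the submitters' processing notes. For GCRMA no settings or version were found in those notes, and no raw intensities were used. All 12 value columns belonged to a sample. Of 22625 probe sets, 20766 had 1 gene symbol in the array annotation, 887 several, 895 none and 77 were controls. Non-control probe sets above log2 4 in at least 3 of 12 arrays were tested, which left 12057. GCRMA's lowest value, shared by all arrays, was 2.16.

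Groups were compared with limma 3.58.1 (R 4.3.3), in 1 fit of 4 group means with an intensity trend (8 residual and 3.16 prior degrees of freedom). Tests were two-sided, with Benjamini-Hochberg adjustment over all 12057 in each of 6 comparisons, and a call needed an adjusted p below 0.05. Every p and 95% interval in the text is limma's. All 10 genes are named whatever their result, with the RNAi targets and, for hsp-3 and hsp-4, the 5 probe sets with the highest Pearson correlation over 12 arrays. A call on another list would have been named too, up to 3 per list. The members, lists and alternatives were chosen with earlier results of these data known. The number of arrays limits precision. Replicate numbers were not taken as pairs: same-numbered arrays of different groups deviated from their group means with correlations from -0.761 to 0.614, over 0.1 in 8 of 18. Some differently numbered double RNAi arrays deviated together more closely. hsf-1 double RNAi replicate 3 with hsp-6;dve-1 replicate 2 gave 0.839, and replicate 2 with replicate 3 of these groups gave 0.846. Neither the main fit nor a block by replicate number models this shared spread. A planned motif search in promoters was not run, since no sequences were used here. The alternatives are listed with their effects at the end. Figures used matplotlib 3.10.9 in Python 3.11.15.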

Additional observations from a re-analysis of the deposited data

How the results depend on the processing

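The members were recomputed under 23 alternatives: no filter, a minimum of log2 6, quantile normalization, centring on array medians, other variance models, a floor, a fit of only the groups compared, a replicate block, each array left out, hsp-6 RNAi replicates 1 and 3 averaged, and the 2 outermost arrays (hsf-1 double RNAi replicate 3 and replicate 2 of hsp-6;dve-1) left out. Of 63 values followed, 50 kept their direction throughout. The values followed were all 17 probe sets for hsp-6 RNAi against empty vector and for each double RNAi group relative to hsp-6 RNAi. From the double RNAi comparisons with empty vector, only the 4 and 8 at an unadjusted p below 0.05 were followed, a choice that favours a stable sign. The other values there, and those between the double RNAi groups, were not followed. The count of members called was 0 in every comparison and alternative, with 3 exceptions. For hsp-6 RNAi against empty vector it was 2 (pek-1) without hsf-1 double RNAi replicate 3 and 3 (pek-1 and atf-6 174669_s_at) without these outermost arrays, and leaving out single arrays gave 0 to 2. For hsp-6;dve-1 less hsp-6 RNAi it was 1 (xbp-1 174139_at) without hsf-1 double RNAi replicate 3. With the replicate block it was 0 in all 6, and the block changed no call on a member. Totals over all probe sets moved far more: 97 to 1681 around 330 for hsp-6 RNAi against empty vector, 35 to 1433 around 684 for hsf-1 double RNAi less hsp-6 RNAi, and up to 1242 from 692 for hsp-6;dve-1 against it, with a low of 0.838% of all probe sets (5.74% otherwise) without hsp-6 RNAi replicate 1, 1 to 31 around 28 between the double RNAi groups, and 0 to 1047 around 0 and 36 to 1038 around 274 for hsf-1 double RNAi and hsp-6;dve-1 against empty vector. Centring on medians moved the split of calls for hsp-6;dve-1 against empty vector from 211 higher and 63 lower to 219 and 154, and quantile normalization to 132 and 68. At the log2 6 minimum atf-6 188462_at was not tested. The cause of these shifts was not tested.

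Of the 63 differences followed, 13, none larger than 0.30, changed sign under some setting. With quantile normalization enpl-1 173321_at read 0.04 for hsp-6 RNAi against empty vector, atf-6 188462_at -0.12 for hsf-1 double RNAi less hsp-6 RNAi, and pdi-2 172947_at -0.05 and crt-1 -0.06 for hsp-6;dve-1 less hsp-6 RNAi; with median centring that pdi-2 value was 0. Without these outermost arrays, hsf-1 double RNAi less hsp-6 RNAi gave ire-1 0.13 on 173766_at and 0.03 on 191178_s_at and crt-1 -0.13. In the same fit hsp-6;dve-1 less hsp-6 RNAi gave ire-1 0.06 and 0.12, atf-6 188462_at 0.01, pdi-1 174408_s_at 0.04 and pdi-2 172947_at -0.03. Leaving out single arrays gave, for hsp-6 RNAi against empty vector, ire-1 191178_s_at -0.09 to 0.34 and enpl-1 173321_at -0.10 to 0.07. For hsf-1 double RNAi it gave ire-1 -0.38 to 0.13 and -0.24 to 0.03, atf-6 188462_at -0.08 to 0.17 and crt-1 -0.13 to 0.18. For hsp-6;dve-1 it gave hsp-3 -0.08 to 0.14, ire-1 -0.33 to 0.06 and -0.41 to 0.12, atf-6 188462_at -0.50 to 0.01, pdi-1 174408_s_at -0.29 to 0.04, pdi-2 172947_at -0.10 to 0.12 and crt-1 -0.12 to 0.10.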
